A study of Mus musculus with 6 samples.

Results

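Nuclear receptors are transcription factors that bind DNA and, in many cases, a small lipid-soluble ligand such as a steroid, a retinoid or a fatty acid. The 43 receptor genes described here are the members of the family other than Esr1 and Pgr, the estrogen and progesterone receptor genes, and were taken by name from the 20887 gene symbols that the array probes read. They had 61 probes, of which 48 passed a filter on dim signal, and 35 of the 43 genes could be tested. RNA came from 2 fractions of mammary cells sorted from virgin mice of the C57/B6 strain with the genotype lgr5-egfp-ires-creert2, in which EGFP reports the Lgr5 locus. Both fractions carried that allele and lay in the lineage-negative, CD24-positive, CD29-high gate named P4, a gate enriched in basal cells. EGFP-positive cells were the Lgr5-positive fraction and EGFP-negative cells the Lgr5-negative fraction, with 3 arrays each. The lineage markers, the age of the mice and whether animals were pooled are not stated in the labels.

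Every sample was labelled with Cy5 and set against a reference RNA from a mix of 11 mouse cell lines in Cy3, so each value below is a log2 ratio of sample over reference, and a fold change is the Lgr5-positive minus the Lgr5-negative mean. Lgr5 itself read 4.24, 5.36 and 5.01 in Lgr5-positive replicates 1 to 3 and 2.84, 4.04 and 3.31 in Lgr5-negative replicates 1 to 3, in the order of the labels within each pair of equal number. Median Cy5 signal was 137 to 169 on Lgr5-positive arrays and 200 to 278 on Lgr5-negative arrays, over a background of 64 to 76, and 50.9% to 74.4% of probes were well above background. Across 15680 tested genes, limma called 96 (0.612%) at a Benjamini-Hochberg adjusted p under 0.05 with the group alone, 92 of them lower (0.587%). With the replicate number as a block, which pairs the arrays, it called 1210 (7.72%), with 330 higher (2.1%) and 880 lower (5.61%). Centring each array on its median in place of the loess curve turned that split to 128 higher and 5662 lower and put the median log2 fold change of all genes at -0.29, against 0.01.

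Some nuclear receptors answer hormones made elsewhere in the body, some sense metabolites inside the cell, and orphan receptors have no settled physiological ligand. Most bind variants of the hexamer AGGTCA, alone, as a pair of receptors of the same kind, or with a retinoid X receptor as partner, and they recruit co-repressors or co-activators depending on ligand. In the mammary gland the estrogen and progesterone receptors are the best known of the family, and glucocorticoid, vitamin D and fatty acid receptors have also been studied there.

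The promoters of the 5 receptor genes that were lower with the replicate block are printed because these transcripts moved in the same direction. Each run is the 250 bases before the most upstream start listed in RefSeq on GRCm38.p6, written 5′ to 3′ on the strand of the gene. They lie at chr1:136960449-136960698 for Nr5a2, chr13:78198874-78199123 for Nr2f1, chr7:70366747-70366996 for Nr2f2 and chr2:91195117-91195366 for Nr1h3, all on the minus strand, and at chr17:28232504-28232753 on the plus strand for Ppard. Capitals mark matches on either strand to the receptor core hexamer AGGTCA, to the CCAAT box, to the TATA box spelled TATAAA and to the GC box spelled GGGCGG.
Nr5a2: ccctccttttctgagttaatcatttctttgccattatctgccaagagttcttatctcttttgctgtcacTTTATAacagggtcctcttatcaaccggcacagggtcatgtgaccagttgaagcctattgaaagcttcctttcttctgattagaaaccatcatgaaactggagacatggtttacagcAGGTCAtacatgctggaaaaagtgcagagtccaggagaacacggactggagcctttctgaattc
Nr2f1: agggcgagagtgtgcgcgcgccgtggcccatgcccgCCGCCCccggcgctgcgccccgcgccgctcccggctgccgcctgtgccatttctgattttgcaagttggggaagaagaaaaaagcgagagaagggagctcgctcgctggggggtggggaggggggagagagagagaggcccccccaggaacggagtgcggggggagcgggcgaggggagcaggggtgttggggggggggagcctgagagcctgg
Nr2f2: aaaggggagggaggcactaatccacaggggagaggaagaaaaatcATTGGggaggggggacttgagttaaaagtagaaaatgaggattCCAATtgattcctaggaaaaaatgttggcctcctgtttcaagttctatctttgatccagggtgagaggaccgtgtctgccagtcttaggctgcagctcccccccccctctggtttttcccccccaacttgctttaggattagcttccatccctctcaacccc
Nr1h3: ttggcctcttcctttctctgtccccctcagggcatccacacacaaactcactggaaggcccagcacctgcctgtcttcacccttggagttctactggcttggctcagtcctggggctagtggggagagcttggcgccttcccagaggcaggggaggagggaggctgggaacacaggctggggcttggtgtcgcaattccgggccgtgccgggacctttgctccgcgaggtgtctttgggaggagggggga
Ppard: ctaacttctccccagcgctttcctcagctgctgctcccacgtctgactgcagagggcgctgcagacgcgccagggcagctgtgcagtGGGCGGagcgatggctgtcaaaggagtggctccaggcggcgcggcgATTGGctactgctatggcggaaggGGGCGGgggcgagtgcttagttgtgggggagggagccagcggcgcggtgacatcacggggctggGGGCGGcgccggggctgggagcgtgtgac

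No motif was found in all 5 promoters. Nr5a2 held an AGGTCA 64 bases before the start and a TATAAA on the opposite strand at 181 bases. Nr2f1 held 1 GC box at 214 bases, Nr2f2 held CCAAT at 205 and 162 bases, and Ppard held a CCAAT at 117 bases and GC boxes at 163, 93 and 29 bases. These letters do not occur in the Nr1h3 window, and no matches overlapped. Over 32851 RefSeq windows of this length, the core hexamer occurred in 14%, the CCAAT box in 33.8%, the TATA box in 12.4% and the GC box in 32.7%. Counted per gene over all of a gene's windows, the core hexamer occurred in 10 of the 40 receptor genes with a promoter entry (25%), against 15.8% of 27025 genes, and the GC box in 22 (55%), against 35.4%. The 40 receptor genes had 60 windows and the 27025 genes 32851, and more windows per gene raise the share with a match. A match describes the letters in the window and was not tested as a site.

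No receptor transcript was higher in Lgr5-positive cells by the test, and those that separated the fractions were all lower. With the group alone, limma called 0 of the 35 receptors at an adjusted p under 0.05, where 0.612% of all genes were called, and 6 receptors had an unadjusted p under 0.05, as did 1285 of all genes (8.20%). With the replicate block 5 receptors fell, namely Nr5a2, Nr2f1, Nr1h3, Nr2f2 and Ppard, which is 14.3% of the receptors tested against 7.72% of all genes. None rose, where 2.1% of all genes did. Their fold changes ran up to 3.22-fold lower for Nr5a2 and were least for Ppard, at 1.58-fold lower. Leaving out the Lgr5-negative array of replicate 1 gave calls with the group alone for Nr5a2, Nr2f1 and Esrrg (adjusted p = 0.0127, 0.0440 and 0.0332). Over all genes that setting called 371 of 15684. With the block, leaving out replicate 2 ended all 5 calls, where 326 of 15683 genes were still called. Leaving out replicate 3 left Nr5a2 and Nr2f1, beside 854 of 15682 genes. The arrays of the 2 fractions did not overlap in 8 receptors, all lower (all genes: 12.2% in either direction, 8.14% lower and 4.06% higher). In a bulk sample, fewer cells of a type that makes a transcript and less of it per cell cannot be told apart.

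**Figure D1:**
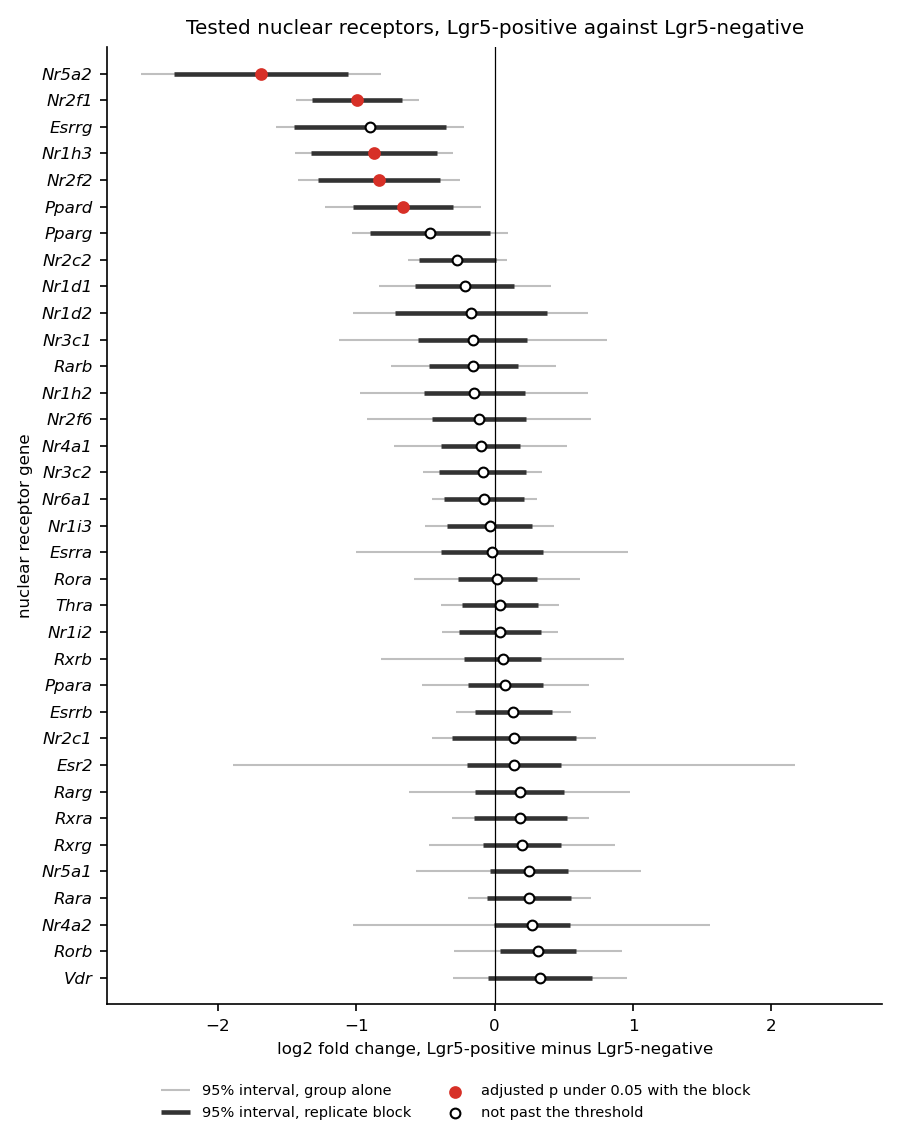
Log2 fold change (Lgr5-positive minus Lgr5-negative, horizontal axis) of the 35 tested nuclear receptor genes (vertical axis), with 95% intervals from limma with the group alone (thin, grey) and with the replicate block (thick, black); filled red points passed an adjusted p of 0.05 with the block. The 5 filled points lie between -1.69 and -0.66, and no receptor lies above 0.33.

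Among the orphan receptors, Nr5a2, which encodes a phospholipid-binding receptor of liver, gut and ovary also called LRH-1, had the largest difference among the 35 tested receptors. It read 0.43, 0.58 and 0.12 in Lgr5-positive replicates 1 to 3 and 1.24, 2.61 and 2.33 in Lgr5-negative replicates 1 to 3. Every Lgr5-positive array lay below every Lgr5-negative one, and the pair differences were -0.82, -2.03 and -2.21. The log2 fold change was -1.69 (SE 0.37 with the group alone, adjusted p = 0.137; SE 0.26 with the block, adjusted p = 0.0136). Cy5 was well above background on 2 of 3 Lgr5-positive arrays and on all 3 Lgr5-negative arrays. A dimmer Nr5a2 probe moved the same way but by -0.46, and the mean of both probes gave -1.07. Without replicate 2 the blocked value was -1.52 and the adjusted p 0.118.

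The COUP-TF genes Nr2f1 and Nr2f2, whose products bind direct repeats of the core hexamer, both fell with the block. Of the 2, Nr2f2 is the one known from vein and lymphatic identity and from organ stroma. Nr2f1 read -2.45, -2.47 and -2.24 in Lgr5-positive replicates 1 to 3 and -1.64, -1.20 and -1.34 in Lgr5-negative replicates 1 to 3. It was the only receptor at least 1 log2 unit below the reference RNA on all 6 arrays, and the groups did not overlap. Its log2 fold change of -0.99 had an SE of 0.19 with the group alone (adjusted p = 0.0944) and 0.14 with the block (adjusted p = 0.00857), and a second probe gave -1.46. Nr2f2 read -1.13, -1.40 and -1.20 in Lgr5-positive replicates 1 to 3 and -0.79, -0.48 and 0.05 in Lgr5-negative replicates 1 to 3. The Lgr5-positive arrays lay close together and the Lgr5-negative arrays spread over a wider range above them. Its fold change was -0.84 (SE 0.25, adjusted p = 0.307 with the group alone; SE 0.19, adjusted p = 0.0424 with the block). Nr2f6, the remaining COUP-TF gene, differed by -0.11 (95% interval -0.45 to 0.23 with the block). Without replicate 2 the blocked adjusted p was 0.0851 for Nr2f1 and 0.234 for Nr2f2, and without replicate 3 it was 0.114 for Nr2f2.

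Esrrg, which encodes an estrogen-related receptor that is active without a known hormone and is known from genes of energy metabolism, separated the groups without passing the test. It read 0.24, 0.10 and 0.03 in Lgr5-positive replicates 1 to 3 and 0.41, 1.42 and 1.26 in Lgr5-negative replicates 1 to 3. The Lgr5-negative arrays of replicates 2 and 3 stood well above the rest, and that of replicate 1 lay just above the Lgr5-positive arrays. The log2 fold change was -0.90 (adjusted p = 0.357 with the group alone and 0.0678 with the block), and Cy5 was well above background on 1 of 3 Lgr5-positive arrays. Leaving out replicate 1 gave -1.27 and an adjusted p of 0.00206 with the block. Without replicate 2 the blocked value was -0.70 (adjusted p = 0.338), and without replicate 3 it was -0.74 (adjusted p = 0.197). A further Esrrg probe exceeded background on none of the Lgr5-positive arrays and on 2 Lgr5-negative arrays. It read at least 2.59-fold lower in the Lgr5-positive group, against the mean of all 3 Lgr5-negative arrays. Esrra and Esrrb, the other estrogen-related receptor genes, differed by -0.02 and 0.14 with adjusted p of 0.965 and 0.572 with the block.

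Nr2c2, whose product TR4 is an orphan receptor that competes for repeats of the core hexamer, showed a small difference with tight replicates. It read -0.34, -0.38 and -0.29 in Lgr5-positive replicates 1 to 3 and -0.13, -0.02 and -0.04 in Lgr5-negative replicates 1 to 3. The groups did not overlap, at a log2 fold change of -0.27 and an adjusted p of 0.245 with the block. A dimmer probe gave -0.01, and its relative Nr2c1 differed by 0.14. Nr6a1, the germ cell nuclear factor gene, lay between 0.04 and 0.28 on all 6 arrays and differed by -0.08. Nr5a1, which encodes a receptor of steroid-making tissue, differed by 0.25 (95% interval -0.04 to 0.53 with the block).

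**Figure D2:**
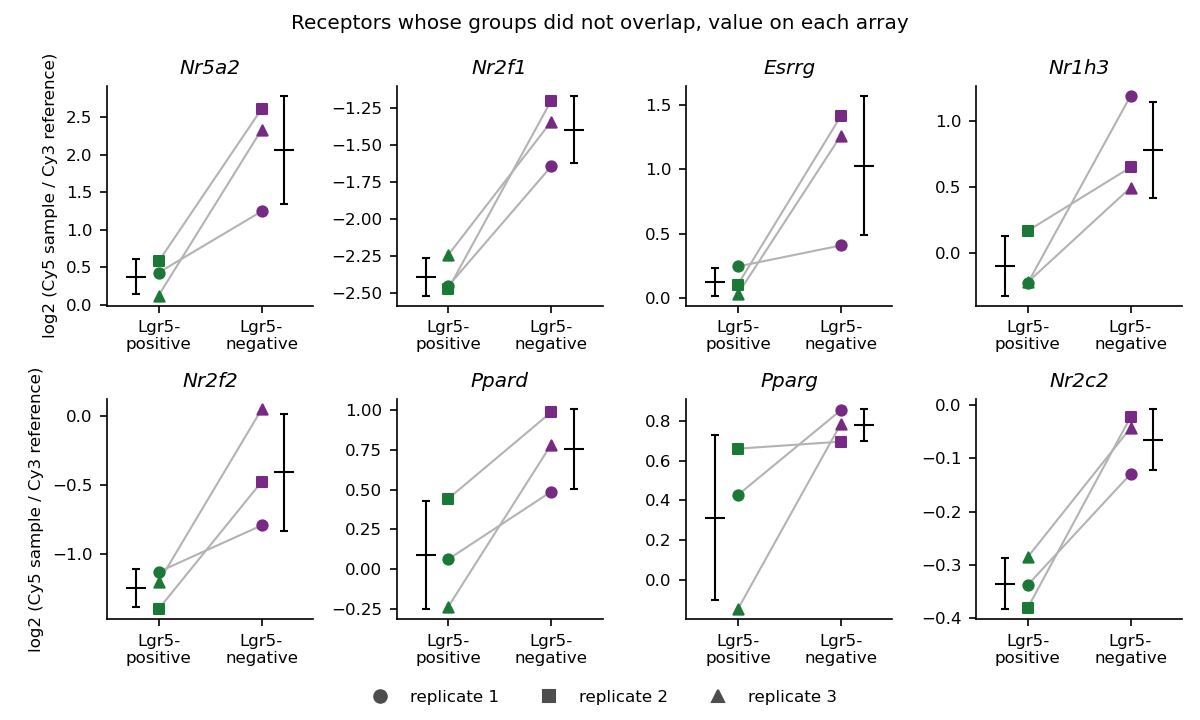
Log2 ratio of Cy5 sample to Cy3 reference (vertical axis, own scale per panel) for the 8 receptors whose groups did not overlap, with Lgr5-positive arrays at left in green and Lgr5-negative arrays at right in purple, symbols for replicates 1 to 3, grey lines joining arrays of equal number, and black bars for the mean and SD (n = 3). Every line climbs toward the Lgr5-negative array, most steeply for Nr5a2 in replicates 2 and 3 and least for Pparg in replicate 2.

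Of the metabolite sensors, Nr1h3 and Ppard fell with the block. Nr1h3 encodes LXR alpha, a sensor of oxidised cholesterol that turns on cholesterol export. It read -0.23, 0.17 and -0.22 in Lgr5-positive replicates 1 to 3 and 1.19, 0.65 and 0.49 in Lgr5-negative replicates 1 to 3. Each Lgr5-positive array lay below each Lgr5-negative one, with the widest gap in replicate 1, at -1.42. The log2 fold change was -0.87 (SE 0.24, adjusted p = 0.256 with the group alone; SE 0.19, adjusted p = 0.0412 with the block), and a second probe gave -0.85. Nr1h2, the gene of LXR beta, differed by -0.15 (95% interval -0.51 to 0.22 with the block). Leaving out replicate 1, 2 or 3 took the blocked Nr1h3 value to -0.60, -1.07 and -0.95, with adjusted p of 0.0641, 0.0992 and 0.0610.

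The PPAR genes encode receptors for fatty acids and their derivatives, and Ppard, the broadly expressed member, was lower in every pair. It read 0.06, 0.44 and -0.24 in Lgr5-positive replicates 1 to 3 and 0.49, 0.99 and 0.78 in Lgr5-negative replicates 1 to 3. The groups were separated by a narrow gap, between 0.44 and 0.49. Its log2 fold change was -0.66 (SE 0.24, adjusted p = 0.456 with the group alone; SE 0.15, adjusted p = 0.0465 with the block), the nearest of the 5 calls to the threshold. Pparg, known as the regulator of fat cell formation, read 0.43, 0.66 and -0.15 in Lgr5-positive replicates 1 to 3 and 0.86, 0.70 and 0.79 in Lgr5-negative replicates 1 to 3. The Lgr5-negative arrays were close together, and the Lgr5-positive array of replicate 2 was nearly as high. At -0.47, Pparg did not pass (adjusted p = 0.202 with the block). Ppara, a regulator of fatty acid oxidation, read 0.75 to 1.36 on Lgr5-positive arrays and 0.61 to 1.29 on Lgr5-negative arrays and differed by 0.08. Without replicate 2 Ppard gave -0.72 and an adjusted p of 0.190, and without replicate 3 -0.48 and 0.135, both with the block.

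None of the hormone receptors passed the test. Esr2, the gene of estrogen receptor beta, read 1.24, -1.24 and 0.98 in Lgr5-positive replicates 1 to 3 and 0.81, -1.34 and 1.096 in Lgr5-negative replicates 1 to 3. Both arrays of replicate 2 lay more than 2 log2 units below the others of their group, while the groups differed by 0.14. Nr3c1, the gene of the glucocorticoid receptor, which works with prolactin on milk protein genes, read -1.20, -1.04 and -0.00082 in Lgr5-positive replicates 1 to 3 and -1.21, -0.45 and -0.12 in Lgr5-negative replicates 1 to 3. Replicate 3 was the highest in both groups, and the difference was -0.16. Nr3c2, the mineralocorticoid receptor gene, and Thra, a thyroid hormone receptor gene, differed by -0.09 and 0.04. Vdr, the vitamin D receptor gene, had the highest positive fold change of the family at 0.33 (95% interval -0.05 to 0.71 with the block, adjusted p = 0.301). It read 1.24, 1.51 and 1.34 in Lgr5-positive replicates 1 to 3 and 0.50, 1.43 and 1.18 in Lgr5-negative replicates 1 to 3. Its pair differences were 0.73, 0.09 and 0.16, the widest from the low Lgr5-negative array of replicate 1.

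Retinoic acid receptors and their retinoid X partners likewise gave no call. Rara read 0.57 to 0.75 on Lgr5-positive arrays and 0.14 to 0.61 on Lgr5-negative arrays, a difference of 0.25 in one direction in all 3 pairs (adjusted p = 0.322 with the block). Rarb differed by -0.15 and Rarg by 0.18. Rxra, Rxrb and Rxrg, whose products pair with many other receptors of the family, differed by 0.19, 0.06 and 0.20. A dimmer Rxrg probe gave -0.80, the widest conflict between probes of a receptor, and read 0.21, 0.07 and -0.02 in Lgr5-positive replicates 1 to 3 and 0.33, 1.03 and 1.30 in Lgr5-negative replicates 1 to 3. The direction for Rxrg is therefore not settled, and a dimmer Rxra probe also had the opposite sign, at -0.25.

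Receptors tied to the circadian clock showed no call either. Nr1d1 and Nr1d2, the genes of the REV-ERB repressors, differed by -0.22 and -0.17, and Rora, whose product activates through the same elements, by 0.02. Rorb read 1.00, 0.30 and 0.78 in Lgr5-positive replicates 1 to 3 and 0.66, 0.05 and 0.43 in Lgr5-negative replicates 1 to 3. It was higher in each pair and differed by 0.31, with the lowest adjusted p among the receptors whose groups overlapped (0.177 with the block), but a second probe gave -0.0040.

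The NR4A group holds immediate early orphan receptors. By the brightest probe of each gene, Nr4a1 was the only receptor at least 1 log2 unit above the reference RNA on every array. It read 2.77, 2.26 and 3.06 in Lgr5-positive replicates 1 to 3 and 2.91, 2.48 and 3.02 in Lgr5-negative replicates 1 to 3, with full overlap and a difference of -0.10. Nr4a2 read 0.86, 2.16 and 2.33 in Lgr5-positive replicates 1 to 3 and 0.51, 1.91 and 2.12 in Lgr5-negative replicates 1 to 3. Replicate 1 was lowest in both groups, and the difference was 0.27 (adjusted p = 0.245 with the block). A second Nr4a2 probe gave 0.46 and also stayed above 1 on every array. That probe read 1.61, 3.06 and 3.72 in Lgr5-positive replicates 1 to 3 and 1.23, 3.06 and 2.72 in Lgr5-negative replicates 1 to 3. The 8 immediate early genes measured beside Nr4a1 and Nr4a2 (Fos, Jun and others) averaged 2.35 to 2.86 on Lgr5-positive arrays and 2.36 to 2.79 on Lgr5-negative arrays. One of them, Jun, fell with the block (-0.58, adjusted p = 0.0334), with groups that did not overlap, and was not called with the group alone (adjusted p = 0.347). The xenobiotic sensor genes Nr1i2 and Nr1i3 differed by 0.04 and -0.04.

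Several receptors varied widely with the replicate number. Averaging the 2 arrays of each number, the range over the 3 numbers exceeded the difference between fractions in 27 of 35 receptors (77.1%), a share near that of all genes (83.3%). A range over 3 means tends to exceed a single difference, so this count is a description only. That range reached 2.33 for Esr2, 1.53 for Nr4a2, 1.19 for Esrra, 1.15 for Nr3c1 and 1.04 for Rxrb, the 5 receptors at or above 1 log2 unit, and its median was 0.60 over receptors and 0.51 over all genes. In the 8 receptors whose groups did not overlap, the range was smaller than the difference between fractions, which their choice favours. What the replicate numbers stand for is not given in the labels. Direction was shared by all 3 pairs in 16 of 35 receptors, 8 lower and 8 higher, and in 44.3% of all genes. Over the 35 tested, 19 log2 fold changes were negative and 16 positive, with a median of -0.04 (all genes, 0.01), whereas median centring of the arrays left 34 negative and a median of -0.36 (all genes, -0.29).

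**Figure D3:**
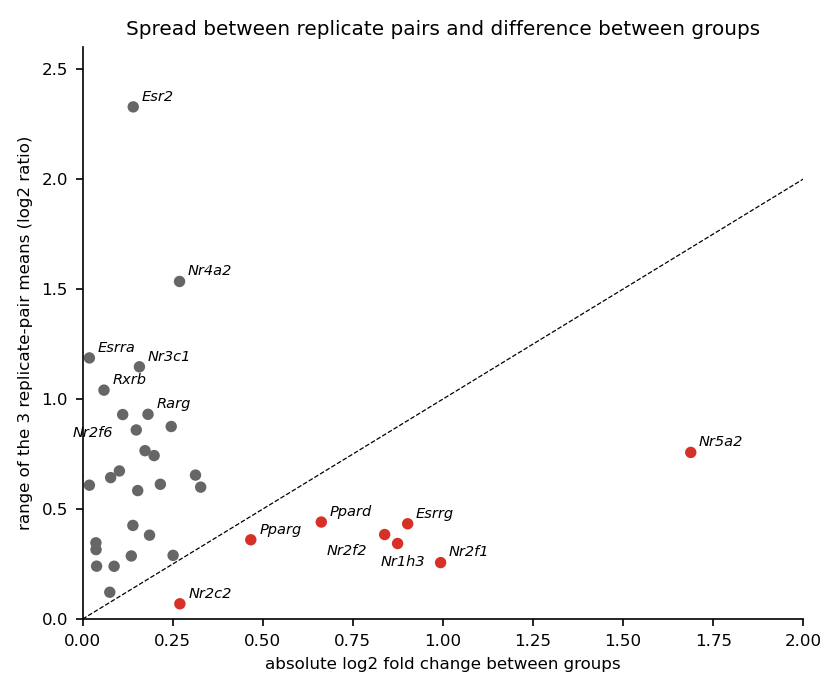
Range of the means of the 3 replicate pairs (vertical axis, log2 ratio) against the absolute log2 fold change between Lgr5-positive and Lgr5-negative arrays (horizontal axis) for the 35 tested receptors, with a dashed line where both are equal and red points for the 8 receptors whose groups did not overlap. The red points lie below the line and the other 27 above it, with Esr2 highest at 2.33.

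A second kept probe read 13 of the tested receptors and shared the sign of the brightest probe in 9 of them. Nr1h3 and Nr2f1 were the receptors whose probes both differed by at least 0.5 log2 units, and their directions were the same. Nr2c1, Rorb, Rxra and Rxrg had probes of opposite sign, by up to 1.00 log2 unit for Rxrg. The brightest probe and its partner differed by 1.23 for Nr5a2, the widest gap of the 13.

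**Figure D4:**
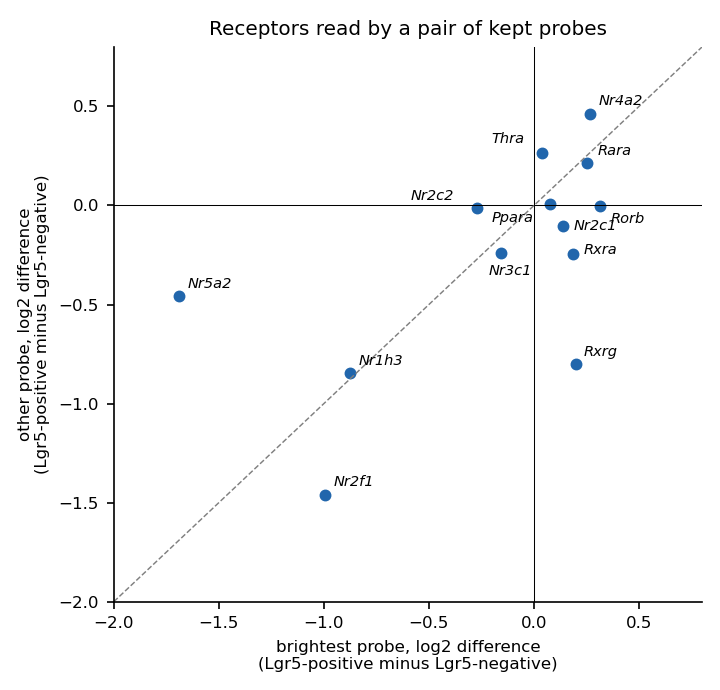
Log2 difference (Lgr5-positive minus Lgr5-negative) of the other kept probe (vertical axis) against that of the brightest probe (horizontal axis) for 13 receptors, with a dashed line of equality. Nr2f1, Nr1h3 and Nr5a2 lie in the lower left quadrant away from the origin, and Rxrg lies in the lower right one at 0.20 and -0.80.

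The 8 receptors without a test were Hnf4a, Nr0b1, Nr0b2, Nr1h4, Nr2e1, Nr2e3, Nr4a3 and Thrb. None of their 9 probes was well above background on more than 2 arrays, and those of Nr0b1, Nr2e1 and Nr2e3 were not on any. Hnf4a and Nr1h4 encode regulators of liver and bile acid genes, Nr0b1 and Nr0b2 encode repressors without a DNA-binding domain, and Nr2e1 and Nr2e3 are known from brain and retina. Nr4a3 and 1 of the Thrb probes were well above background on 1 Lgr5-negative array and no Lgr5-positive array, so no difference is given for them. Of the 35 tested receptors, 30 had Cy5 well above background on all 6 arrays, and 5 had fewer such arrays in the Lgr5-positive group, namely Esrrg, Nr3c2, Nr1i2, Nr1i3 and Nr5a2.

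Genes through which the receptors act, or which they are known to regulate, were counted next. Of 109 such genes in 9 lists, chosen with earlier results of these data known, 97 were tested. With the group alone limma called 0 of the 97, and 16 had an unadjusted p under 0.05, against 8.20% of all genes. With the replicate block 13 fell and 1 rose, or 14.4% against 7.72% of all genes, and their median log2 fold change was -0.04 against 0.01 for all genes. Leaving out replicate 2 left 4 calls, Abcg1, Dbp, Rarres2 and Thrsp, leaving out replicate 3 left 9 and leaving out replicate 1 gave 20. Over all genes these settings called 326 of 15683, 854 of 15682 and 1398 of 15685.

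The co-repressor and co-activator genes gave 0 calls of 16 in either fit, with a median of 0.05. The lowest p with the block belonged to Pprc1, a co-activator of mitochondrial genes, at 0.37 (adjusted p = 0.165), and Ncoa7, at -0.51 (adjusted p = 0.212). Vitamin D handling gave 0 calls of 6, with Cyp2r1, a 25-hydroxylase, at 0.28 and Trpv6, a calcium channel, at 0.35, both short of the threshold (adjusted p = 0.257 and 0.261 with the block).

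Lists of fatty acid and cholesterol genes held 5 of the 13 lower transcripts. In the PPAR list 4 of 13 fell with the block, at a list median of -0.44. Among them were Lpl, lipoprotein lipase (-0.85, adjusted p = 0.0261), Pdk4, a kinase that restrains glucose oxidation (-0.83, 0.0300), and Plin2, a lipid droplet coat protein (-0.78, 0.0371). Among 8 LXR targets, 5 had a negative fold change, and the list median was -0.24. Abcg1, a cholesterol exporter, fell by 1.03 (adjusted p = 0.00561 with the block). Scd1 at -0.61, Abca1 at -0.94 and Apoe at 0.33 did not pass (adjusted p = 0.0516, 0.0622 and 0.191 with the block). Pdk4 was also the 1 gene of 12 in the list of estrogen-related receptor targets that fell, and that list had a median of -0.01. Each of these named genes except Scd1, Abca1 and Apoe was called with the block and not with the group alone.

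In the retinoid list 3 of 12 fell with the block, at a median of -0.20. They were Rarres2, the chemerin gene (-1.21, adjusted p = 0.00555), Tgm2, a transglutaminase (-1.45, 0.0167), and Rdh10, which makes retinaldehyde (-0.76, 0.0334). Glucocorticoid targets gave 2 lower calls of 12, Tsc22d3, also called Gilz (-0.97, adjusted p = 0.00546), and Fkbp5, a chaperone of steroid receptors (-1.27, 0.0343), beside a median of 0.02 and values above 0 for Mt2 (0.56) and Sgk1 (0.35), which did not pass. Thyroid hormone targets gave 1 lower call, Thrsp (-1.65, adjusted p = 0.00461), a lipogenic protein, and the only higher one of all 9 lists, Hr, a co-repressor of hair and skin (0.63, 0.0336). Of 14 clock genes, Dbp, an output gene of the clock (-1.08, 0.00461), and Cry2, a clock repressor (-0.68, 0.0266), fell, at a median of -0.01.

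**Figure D5:**
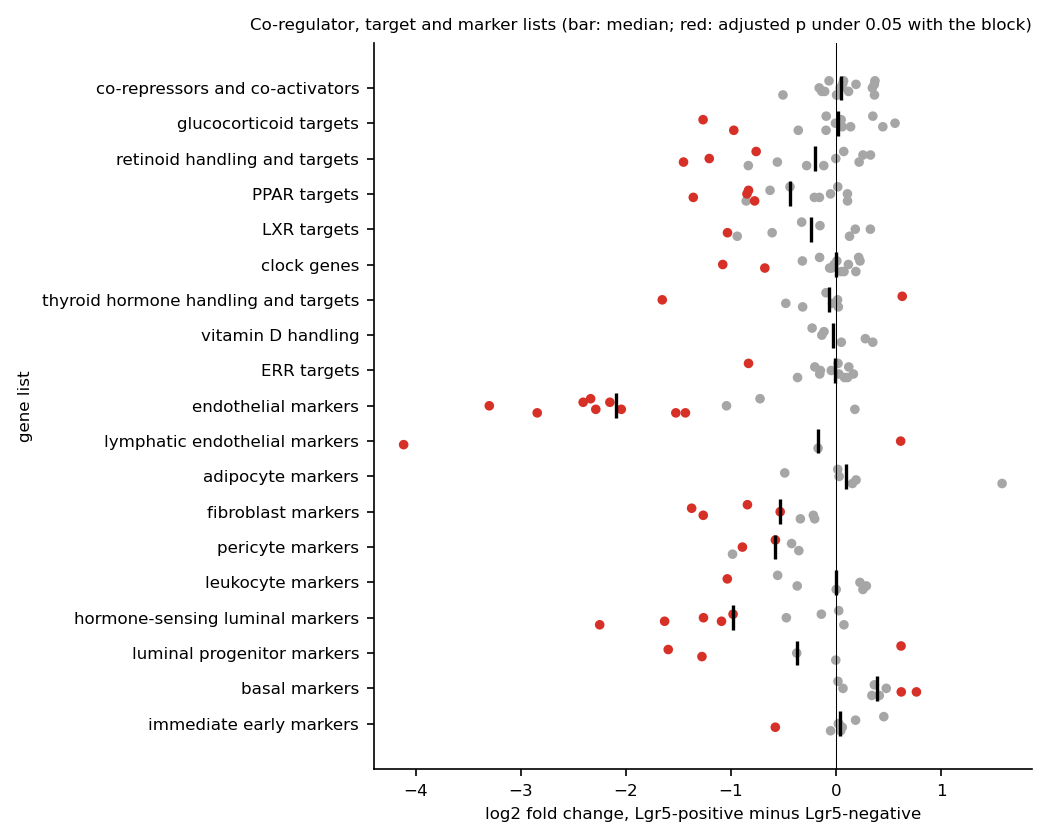
Log2 fold change (Lgr5-positive minus Lgr5-negative, horizontal axis) of each tested gene in the co-regulator, target and cell type marker lists (vertical axis), with black bars for list medians and red points for an adjusted p under 0.05 with the replicate block. The endothelial markers have the lowest median, -2.10, and the medians of the 9 receptor-related lists lie between -0.44 and 0.05.

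Markers of some other cell types were also lower in Lgr5-positive cells, and those of others were not. Endothelial markers, whose tissue is a known site of Nr2f2, fell in 9 of 12 with the block and in 3 with the group alone, and their mean log2 ratio was 1.30 to 2.37 on Lgr5-positive arrays and 3.19 to 3.80 on Lgr5-negative arrays. Tie1 among them exceeded background on none of the Lgr5-positive arrays. The calls that follow are with the block. Fibroblast markers, 4 of 7 lower, averaged -1.40 to -1.27 on Lgr5-positive arrays and -0.80 to -0.56 on Lgr5-negative arrays. For pericyte markers, 2 of 5 lower, the Lgr5-positive arrays averaged -0.22 to 0.17 and the Lgr5-negative arrays 0.44 to 0.84. Of the 3 lymphatic markers tested, Lyve1 fell by 4.12 on the log2 scale and Pdpn rose by 0.61. Hormone-sensing luminal markers, 5 of 9 lower, averaged 0.39 to 0.89 on Lgr5-positive arrays and 1.25 to 1.56 on Lgr5-negative arrays. Luminal progenitor markers gave 2 lower calls and 1 higher among 5, and leukocyte markers 1 lower call of 7. Adipocyte markers, the cell type best known for Pparg, gave 0 calls of 6 (0.61 to 1.37 on Lgr5-positive arrays, 0.35 to 0.97 on Lgr5-negative arrays), and basal markers gave 2 higher calls of 8 (3.51 to 3.77 on Lgr5-positive arrays, 3.21 to 3.32 on Lgr5-negative arrays). The part of other cell types, and of the lower Cy5 signal of the Lgr5-positive arrays, in the receptor differences was not tested.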

How the data were processed

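The authors deposited 1 Agilent Feature Extraction file per array (version 11.0 per the submitters' processing notes, 11.0.1.1 per the file headers). Per the file headers these hold the median intensity of each spot and its background in both channels, processed intensity, a log10 ratio of Cy5 over Cy3 and other per-spot flags. A deposited value table holds log2 ratios. Its values show centring of each probe on its median over the arrays and the same direction as the scanner ratio (correlation 0.920 to 0.950, 81.6% to 83.2% of values within 0.001), its column medians were -0.0016, 0.03 and 0.02 for Lgr5-positive and 0.0064, -0.02 and -0.05 for Lgr5-negative replicates 1 to 3, and what set the remaining values apart is unknown.

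Here, median signals were corrected with normexp (offset 50, which shrinks ratios of dim probes) and normalized by loess within arrays in limma 3.58.1 under R 4.3.3, leaving out control spots and outlier-flagged ones. Spots of a probe were averaged. Probes were named through RefSeq transcripts with a GRCm38.p6 table (27509 probes, 20887 symbols). A probe was kept with Cy5 well above background on at least 3 of 6 arrays, and the brightest stood for its gene. The 15680 genes were fitted with lmFit and eBayes with the group alone, two-sided, Benjamini-Hochberg adjusted over all of them, and with the replicate number as a block. Same-numbered arrays deviated together from their group means (correlations 0.810, 0.819 and 0.675 across genes), so the numbers were taken to pair them. They also neighboured each other on the 1 slide, the Lgr5-positive array first, so slide position and fraction cannot be told apart in a pair. Nothing in the labels says whether replicates were separate animals, so p-values measure the spread between these samples. An "at least" fold sets the Cy5 mean over all arrays of the brighter group against the lowest signal well above background. It was taken after loess and Aquantile normalization and is open to dye bias.

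The receptors, lists and naming rule were chosen with earlier results of these data known. Values on every array are given for receptors called in either fit, with groups that do not overlap or with a log2 fold change of at least 1 in size, and for others where a receptor family is described. In lists, called genes are named, up to 4, or else those with the lowest p, and some uncalled genes are given beside them. One called list gene is not reported here by name. The number of arrays limits the precision. The fitting code was tested on simulated data.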

Additional observations from a re-analysis of the deposited data

How the results depend on the processing

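With the group alone 0 receptors and 0 co-regulator or target genes were called, also with no background subtraction, normexp offset 16, the scanner ratio, the deposited value table, median centring, Cy5 alone with quantile normalization, either filter on dim probes and the mean of a gene's probes. Over all genes these group-alone settings called 9 to 109. Array weights gave 2 receptors (Nr2f1 and Nr5a2) and 3 list genes, beside 312 of 15680 genes in all. The replicate block gave 5 receptors and 14 list genes, beside 1210 of 15680. Leaving out each array in turn gave 0 to 3 receptors and 0 to 5 list genes, the higher counts without Lgr5-negative replicate 1 (Esrrg, Nr2f1 and Nr5a2). All-gene calls there ran from 0 to 371. With the block, the scanner ratio gave 2 receptors and 9 list genes, as did the deposited table. Over all genes they called 738 of 15680 and 753 of 15690. Median centring gave 16 receptors and 49 list genes, all lower, beside 5790 of 15680 genes. Leaving out each replicate pair gave 0 to 5 receptors and 4 to 20 list genes, none of the receptors without replicate 2. All-gene calls there ran from 326 to 1398. The other blocked settings gave 4 or 5 receptors and 13 to 17 list genes, beside 1098 to 1307 genes in all. Nr2f1 was called in all 10 blocked settings that kept every array and Nr5a2 in all 9 that measured it, with log2 fold changes of -1.35 to -0.99 and -2.39 to -1.07. Nr2f2 was called in 8 of 10, and Nr1h3 and Ppard in 7 of 10. Ppard reached -1.03 with median centring. Esrrg was called in 2 of 9, Pparg and Nr2c2 in 1 of 10. None of the 8 receptors with separate groups changed sign in any setting run. The cause of these changes was not tested. Alternatives that join the block to another background correction, the deposited table, Cy5 alone, a filter on dim probes or the mean of probes, and those for the lists other than the block itself, were chosen after seeing the data.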
